A study of Mus musculus with 90 samples.

Results

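Oxidative phosphorylation is the process by which mitochondria make most of a cell's ATP. Electrons from NADH enter the respiratory chain at complex I and those from succinate at complex II, pass through ubiquinone to complex III, then through cytochrome c to complex IV, where oxygen is reduced. Complexes I, III and IV pump protons, and complex V, the ATP synthase, lets them flow back to drive ATP synthesis. A few subunits are encoded by mitochondrial DNA, while the rest are nuclear genes whose products are imported. Mouse oocytes and cleavage stage embryos are known to depend on mitochondrial pyruvate oxidation, and they carry a stock of maternal mRNA that is largely degraded by the 2-cell stage as the embryonic genome is switched on.

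The nuclear genes of this system were taken from the count table by symbol: all those that begin with Nduf and a subunit letter (complex I), Sdha to Sdhd (complex II), Uqcr and Cyc1 (complex III), Cox4 to Cox8 (complex IV), Atp5 (complex V), and Cycs, the somatic cytochrome c, leaving out symbols marked as pseudogenes. This gave 86 of the 24422 genes in the table, of which 37 fall in complex I, 4 in complex II, 9 in complex III, 18 in complex IV and 17 in complex V. The grouping follows the symbol, so that Ndufa4, now usually assigned to complex IV, counts under complex I. It also takes in Cox7a2l, a supercomplex factor, Atp5s, a coupling factor, and Atp5sl, an assembly factor of complex I, none of which is a regular subunit. In the mm9 annotation 15 members overlap another gene, among them Ndufa2, Uqcrc2, Atp5f1 and Ndufb11, and processed copies of such genes are common in the genome, so reads of these members may be shared.

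The samples were single MII oocytes, 2-cell (2c) embryos and 8-cell (8c) embryos of CD-1 mice. Females that were wild type (WT) or knocked out for Plag1, a zinc finger transcription factor, were superovulated with pregnant mare serum and then human chorionic gonadotropin (hCG), and for embryos they were mated with WT males. A matPlag1KO embryo therefore lacked maternal Plag1 but carried a WT paternal allele, while a matPlag1KO oocyte had neither. Oocytes were taken 21 to 23 h after hCG, freed of cumulus cells with hyaluronidase and not cultured, and embryos were grown in KSOM medium and picked 45 to 47 h (2c) and 71 to 73 h (8c) after fertilization. The donor female of an embryo was not named, so embryos of one female could not be grouped, and p-values measure the spread between single oocytes or embryos.

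The 5′ ends of mRNA molecules were counted with molecular identifiers in 2 multiplexed sets, libA and libB, each of which held every stage and genotype. Of 90 libraries, 12 with a median below 1 CPM (counts scaled to a common library total) were left out. This left 16 WT and 14 matPlag1KO oocytes, 11 WT and 11 matPlag1KO 2c embryos, and 15 WT and 11 matPlag1KO 8c embryos. Gene levels are given below in CPM with library totals adjusted by TMM scaling, which sets most genes near no change between libraries. The main tests between stages are scaled by spike-in RNA instead, so a level and a change can differ in direction. Depth ran from 92475 to 2502421 gene counts, with group medians of 148473 and 163626 at 2c against 393914 to 649899 at the other stages, so low genes were measured least precisely at 2c. Plag1 mRNA was seen in all 16 WT oocytes (326 counts together) and in 3 of the 14 from matPlag1KO females (4 counts). At 2c it was seen in 1 WT embryo (1 count) and in 9 of 11 matPlag1KO embryos (91 counts), and at 8c in 5 of 15 WT (10 counts) and 4 of 11 matPlag1KO embryos (6 counts). Because the embryos can transcribe the paternal allele, Plag1 checks the genotype labels in oocytes but not in embryos. The summed CPM of 10 oocyte markers had medians of 7942 (WT) and 18187 (matPlag1KO) in oocytes against 107 and 166 at 8c, and that of 10 genes of the 8c stage was higher at 8c, at 2813 and 1722. At 2c it was 693 in WT and 337 in matPlag1KO, while 11 genes of the 2c stage summed to 212 and 530. The part of these differences in the results below was not tested. Cumulus and granulosa markers summed to at most 47.3 CPM in any library.

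Of the 86 genes, 84 passed the filter of 1 CPM in at least 5 libraries and were tested. Not tested were Cox7b2 and Cox8b, tissue-restricted forms of complex IV subunits, with no count before 8c and at most 3 libraries of a group with a count at 8c. In the 8c groups 79 (WT) and 77 (matPlag1KO) members had a count in every library, against 27 and 48 in oocytes and 46 and 41 at 2c.

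Promoters are shown for the genes on which the results turn: the sister genes Cox6b1 and Cox6b2, which exchange places between 2c and 8c, and Ndufs8 and Cox7c, which were lower in matPlag1KO 2c embryos. Each run holds the 120 bases before the RefSeq start site on the strand of the gene, 5′ to 3′, in build GRCm38.p6, at chr7:30626115-30626234, chr7:4753095-4753214, chr19:3912775-3912894 and chr13:86046796-86046915, all on the minus strand. Capitals mark the ETS and GABP core, CCGGAAG, on either strand.
Cox6b1: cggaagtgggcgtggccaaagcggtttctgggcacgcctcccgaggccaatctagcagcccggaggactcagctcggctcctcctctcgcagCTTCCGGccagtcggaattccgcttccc
Cox6b2: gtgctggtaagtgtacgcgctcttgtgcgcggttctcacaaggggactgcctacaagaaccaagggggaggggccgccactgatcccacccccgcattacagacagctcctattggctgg
Ndufs8: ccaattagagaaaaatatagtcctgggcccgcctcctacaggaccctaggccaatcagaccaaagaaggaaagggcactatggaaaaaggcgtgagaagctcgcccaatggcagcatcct
Cox7c: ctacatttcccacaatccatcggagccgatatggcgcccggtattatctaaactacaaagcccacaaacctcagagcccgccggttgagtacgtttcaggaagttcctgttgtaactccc
Within these 120 bases the core was present once, in Cox6b1, and none of the 4 motifs searched was found in the other 3 runs. In the longer promoters counted next, Ndufs8 also held the ETS and GABP core, Cox6b2 held the Sp1 core and Cox7c held none of the 4. The motifs, each searched on both strands, were the NRF1 core GCGCATGC, the ETS and GABP core CCGGAAG, the YY1 core AAGATGGC and the Sp1 core GGGCGGG, which stand for factors known to act on nuclear respiratory genes. RefSeq promoters of 300 bases, 250 before and 50 after the start, were matched by symbol for 67 of the 86 members. The NRF1 core was in 11 of these 67 genes (16.4%, against 3.05% of the 27025 genes in the table), the ETS and GABP core in 16 (23.9% against 9.93%), the YY1 core in 9 (13.4% against 3.19%) and the Sp1 core in 22 (32.8% against 27.9%). A match of letters is a description and not a bound site.

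Summed over the 86 members, the share of all gene counts rose in steps from oocyte to 8c. The median share was 0.480% in WT oocytes (0.352 to 0.785), 0.937% in WT 2c embryos (0.784 to 1.29) and 2.03% in WT 8c embryos (1.59 to 2.48). In matPlag1KO libraries it was 0.502% (0.288 to 0.662), 0.688% (0.603 to 1.25) and 2.08% (1.62 to 2.29). The 8c libraries lay above every library of the earlier stages, while the 2 genotypes overlapped at each stage. Counts per 1000 spike-in counts are meant to follow the amount per oocyte or embryo, because each library received the same spike-in RNA. WT medians were 247 in oocytes (86.9 to 750), 152 at 2c (120 to 214) and 1002 at 8c (494 to 1406). Those of matPlag1KO libraries were 305 (217 to 550), 132 (103 to 213) and 801 (488 to 1757). These are amounts per oocyte or embryo and not per cell. On that scale the medians were lower at 2c than in the oocyte, and the scales thus give opposite orders of medians for the first step. All WT 2c libraries lay within the range of the WT oocytes, while the matPlag1KO 2c libraries lay below every matPlag1KO oocyte. In WT complex II was the exception among the complexes, since its share of the counts was lower at 2c (median 0.00855%) than in oocytes (0.0273%) and only 0.0161% at 8c.

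**Figure D1:**
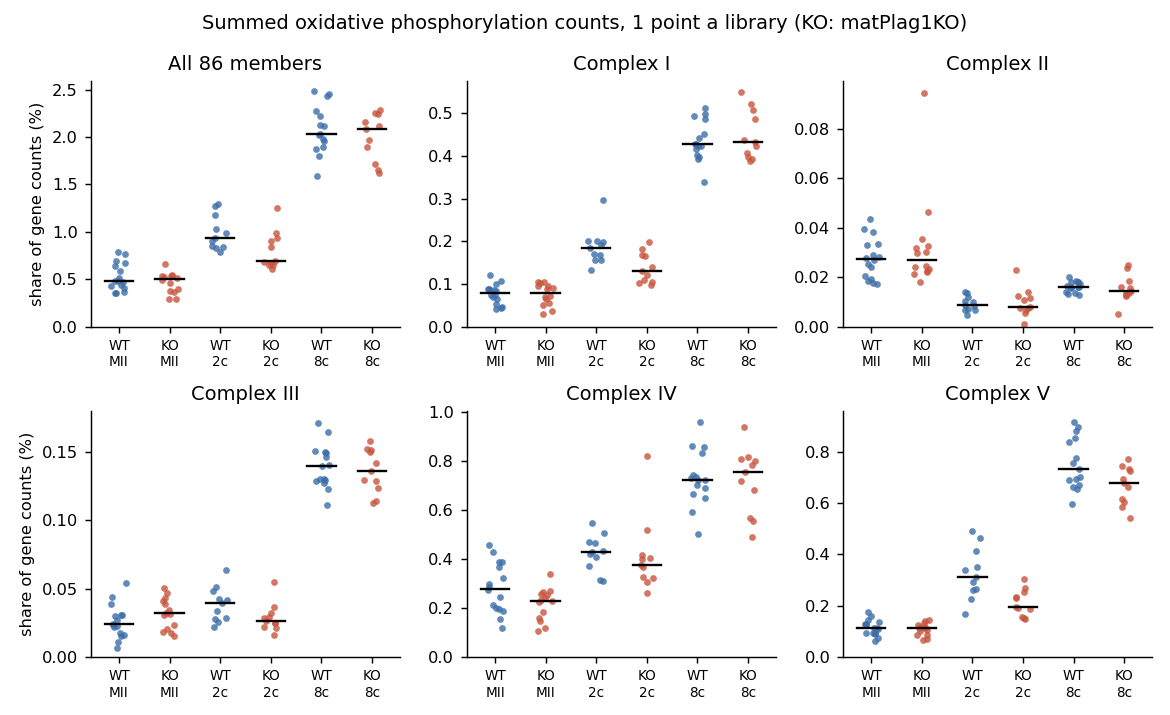
Share of all gene counts (percent, y axis) taken by all 86 members and by each complex, in 6 groups (x axis); each point is a library and the black line is the group median. All 8c libraries lie above the others for the 86 members, and complex II is the panel whose oocyte groups stand highest.

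The first question was how these mRNAs changed from stage to stage. From MII to 2c in WT, 17 of the 84 members rose and 37 fell (edgeR quasi-likelihood test with spike-in scaling, adjusted p under 0.05), beside 14.1% of all tested genes that rose and 51.3% that fell. The members' median log2 fold change was -0.94 and that of all genes -1.46. With TMM scaling, which sets most genes near no change, the medians became 0.64 and -0.03. The same 17 members rose under both scalings, as did all 2326 genes that rose with spike-in scaling (14.1%), so this agreement does not set the members apart. Further members rose with TMM scaling alone, as given at the end. Only 14 members fell under both scalings (all genes: 23.1%), so that the call of a fall rested on the scaling for the rest.

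The members that rose included Atp5j, coupling factor 6 in the peripheral stalk of the ATP synthase. It was seen in 7 WT oocytes (0 to 8.72 CPM, median 0) and in all 11 WT 2c embryos (80.4 to 395 CPM, median 263). The groups did not overlap, and the log2 fold change was 5.60 ± 0.46 (SE, adjusted p = 1.79e-18). Atp5j lies head to head with Gabpa, the DNA-binding subunit of the factor that recognizes the ETS core above. The gene bodies overlap (mm9, chr16:84828116-84835870, minus strand, and chr16:84835369-84864023, plus strand). Gabpa was seen in 2 WT oocytes (4 counts) and in every WT 2c embryo (7.07 to 187 CPM), with a log2 fold change of 5.25 ± 0.56. How the counting treated strand was not given in the sources used here, so reads of this pair may not be told apart.

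Atp5g1, 1 of 3 genes for the proton-carrying subunit c, went from 0 to 65.9 CPM (median 8.66) in WT oocytes to 247 to 1720 CPM (median 951) in WT 2c embryos. These ranges did not overlap either, and the log2 fold change was 3.72 ± 0.43. Ndufa7, an accessory subunit of complex I, rose by 3.96 ± 0.56, Cox7b of complex IV by 3.13 ± 0.39 and Uqcrq of complex III by 2.76 ± 0.45. Each of these was at a median of at most 10.1 CPM in WT oocytes and of at least 58.3 CPM at 2c. Cox7a1, the muscle form of subunit VIIa, had no count in 16 WT oocytes and 14 counts in 5 WT 2c embryos, at least 7.21-fold higher when the oocytes are set at 3 counts over the group.

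Among members with a mean of at least 20 CPM in one of the groups, Ndufa10, Uqcrc2 and Sdha had the lowest values of complexes I, III and II. Ndufa10 of complex I went from 72.8 to 270 CPM (median 184) in WT oocytes to 0 to 31.2 CPM (median 13.7) at 2c, a log2 fold change of -4.94 ± 0.42 without overlap. Uqcrc2, a core protein of complex III, changed by -4.83 ± 0.46 and Sdha, the flavoprotein of complex II, by -4.08 ± 0.51. All 4 members of complex II fell, with a median of -3.31, and Sdha and Sdhc also fell with TMM scaling. By complex, 6 rose and 15 fell in complex I, 3 and 2 in complex III, 3 and 8 in complex IV, and 5 and 8 in complex V. Cox6a2, the heart and muscle form of subunit VIa, had 53 counts in 8 WT oocytes and none in 11 WT 2c embryos, at least 11.4-fold lower on the same floor.

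From 2c to 8c the members rose almost as a whole. In WT 77 of 84 rose and 1 fell, beside 31.9% of all genes that rose and 16.2% that fell, and the median log2 fold change was 3.21 against 0.53 for all genes. Among genes with a mean of at least 20 CPM in one of the groups, 76 of 79 members rose (96.2%) against 48.3% of all such genes. Under both scalings 68 members rose (all genes: 21%), and with TMM scaling the medians were 2.37 and -0.12. All 9 members of complex III and all 17 of complex V rose, together with 34 of 37 in complex I, 3 of 4 in complex II and 13 of 16 in complex IV. Those that did not pass the test included the restricted forms Cox4i2, Ndufa4l2 and Cox8c.

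Examples with 2c and 8c groups that did not overlap are given for complexes II to V. Cox7c, a small subunit of complex IV, went from 10.9 to 396 CPM (median 138) in WT 2c embryos to 1343 to 3170 CPM (median 1834) at 8c, with a log2 fold change of 4.63 ± 0.49. Atp5e, the epsilon subunit of the central stalk, went from 0 to 36.5 CPM (median 16.9) to 195 to 751 CPM (median 292), a change of 5.08 ± 0.44. Uqcrb, a small subunit of complex III, had 5 counts in 11 WT 2c embryos and 27.8 to 113 CPM at 8c (5.14 ± 0.63), and Sdhb, the iron-sulfur subunit of complex II, rose by 4.17 ± 0.56. Sdhb was at 0 to 20.8 CPM at 2c and 62.6 to 136 CPM at 8c. Ndufa8 of complex I had 1 count in WT 2c embryos and 520 at 8c, a ratio per spike-in count of 314 with an exact 95% counting interval of 56.2 to 12450.

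Cytochrome c, the mobile carrier between complexes III and IV, moved less: Cycs had a log2 fold change of -0.42 from MII to 2c (adjusted p = 0.303) and rose by 1.69 from 2c to 8c. Its partner in complex III, cytochrome c1 (Cyc1), had 0.41 at the first step, which did not pass, and rose by 2.70 at the second.

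Taking both steps, 35 members in WT fell and then rose, 26 had no called change and then rose, and 16 rose at each step. In matPlag1KO these counts were 39, 29 and 8. Such patterns over both steps were not counted over all genes, so these counts do not set the members apart. From MII to 2c in matPlag1KO 9 members rose and 45 fell (all genes 13.5% and 50.3%, medians -1.18 and -1.42), and from 2c to 8c 76 rose and 1 fell (29.1% and 19.5%, medians 3.29 and 0.30). Atp5j rose by 3.52 ± 0.45 and Atp5g1 by 2.22 ± 0.43 at the first step in matPlag1KO. Uqcrq had -0.13 there, against a rise of 2.76 in WT, and the test of this difference between genotypes is given with the genotype comparisons. For scale, the 77 mitochondrial ribosomal protein genes, whose products serve to translate the mitochondrially encoded subunits, were counted in the same way. In WT 11 of them rose and 45 fell from MII to 2c, beside 14.1% and 51.3% of all genes. From 2c to 8c 72 rose and 1 fell, beside 31.9% and 16.2% of all genes. Of the same 77, 6 were lower and 0 higher in matPlag1KO 2c embryos (edgeR), beside 2.62% and 2.3% of all genes. At an unadjusted p under 0.05 in that test stood 20 of them, beside 20.5% of all genes. Their median was -0.33 against 0.12 for all genes.

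**Figure D2:**
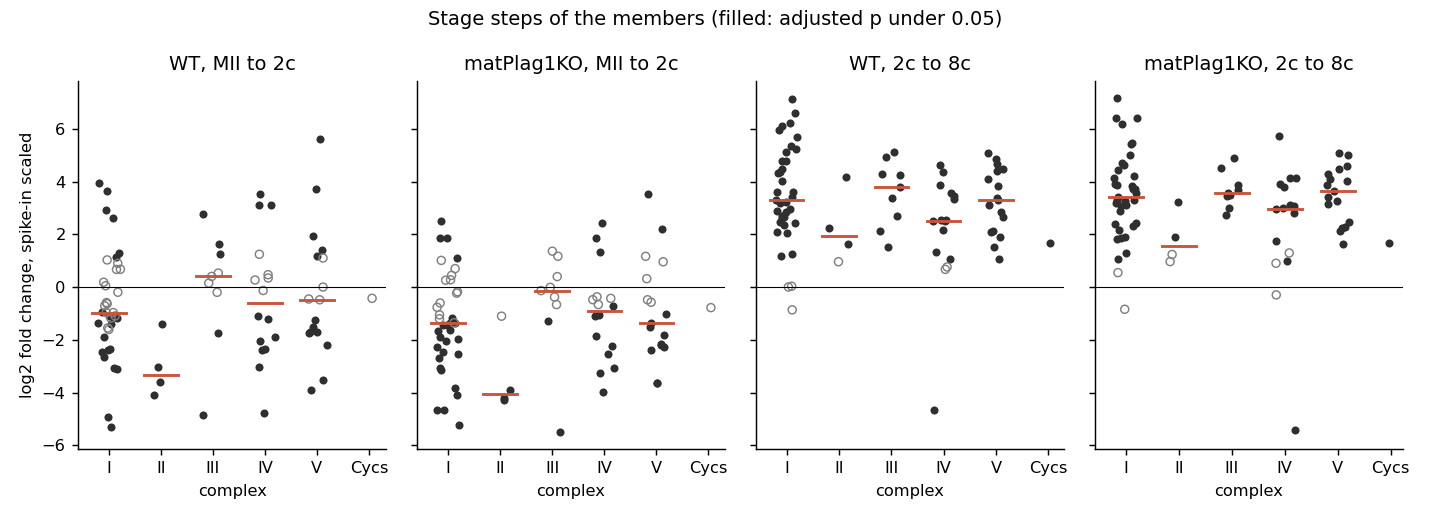
Log2 fold change with spike-in scaling (y axis) of each member between stages, by complex (x axis), in WT and matPlag1KO; filled points passed adjusted p under 0.05, open points did not, and red lines are medians of a complex. From 2c to 8c nearly all points lie above 0, and the single filled point far below is Cox6b2.

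The one member that fell from 2c to 8c was Cox6b2. It and Cox6b1 encode alternative forms of subunit VIb of complex IV, Cox6b1 being the form of somatic tissues and Cox6b2 the form best known from testis. They lie apart on one chromosome, at chr7:4703394-4704696 (Cox6b2) and chr7:31401993-31411170 (Cox6b1) in mm9, both on the minus strand. Cox6b2 was at 165 to 948 CPM (median 469) in WT oocytes, 250 to 1174 CPM (median 561) at 2c and 0 to 31.8 CPM (median 11.2) at 8c. Its log2 fold change from 2c to 8c was -4.64 ± 0.36 in WT and -5.41 ± 0.43 in matPlag1KO, and every 8c library lay below every 2c library. Cox6b1 did the reverse, from 75.1 to 197 CPM (median 129) in WT 2c embryos to 528 to 1096 CPM (median 796) at 8c, a change of 3.47 ± 0.39 in WT and 4.13 ± 0.42 in matPlag1KO.

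As a share of the 5′-end counts of the pair, Cox6b1 made up a median of 6.64% in WT oocytes and 7.52% in matPlag1KO oocytes. At 8c it made up 98.7% in both genotypes, and no 8c library was below 95.6%. At 2c the median share was 21.2% in WT (8.76 to 42.2) and 9.17% in matPlag1KO embryos (3.74 to 14.8). The same order was seen within libA (20.5% and 9.17%) and within libB (23.7% and 8.48%), and the ranges overlapped. This share was looked at after its values were known and has no test. Neither gene passed the test between genotypes at 2c, with log2 fold changes of -0.83 ± 0.31 for Cox6b1 (adjusted p = 0.0979) and 0.43 ± 0.31 for Cox6b2 (adjusted p = 0.443).

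The genes for subunit c, whose mature products are the same protein, also changed places. Atp5g1 made up a median of 15.8% of the counts of Atp5g1, Atp5g2 and Atp5g3 in WT oocytes, 88.9% at 2c and 54.4% at 8c, and in matPlag1KO 27.4%, 79.4% and 57.0%. In both genotypes the lowest 2c library, at 64.2% in WT and 51.3% in matPlag1KO, was above the highest oocyte, at 42.0% and 50.5%. Atp5g3 rose by 4.68 from 2c to 8c in WT and Atp5g2 by 4.40. For other sister genes one form took most counts at every stage: by median at least 94.5% for Cox6a1 over Cox6a2, 94.4% for Cox4i1 over Cox4i2 and 97.6% for Cox7a2 over Cox7a1.

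**Figure D3:**
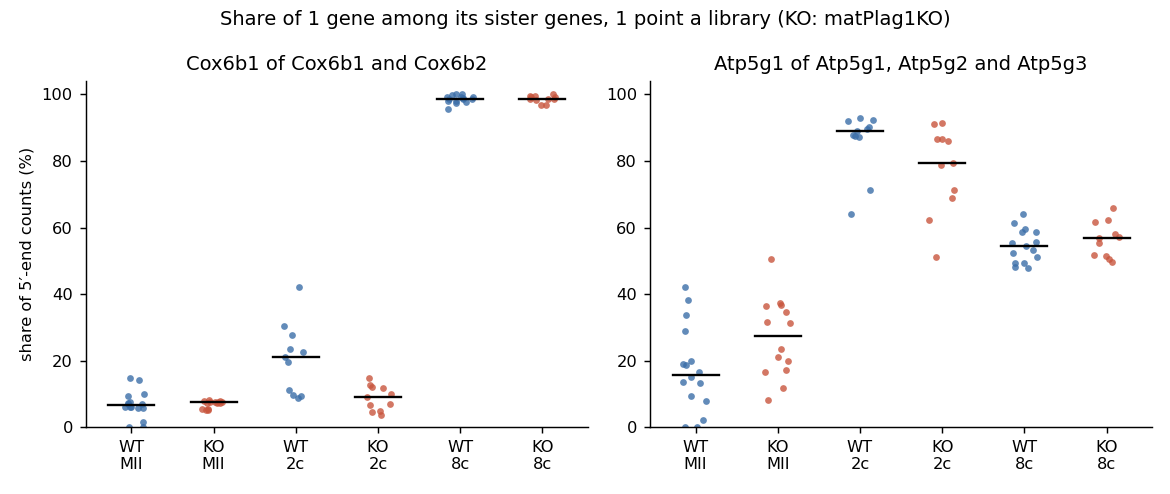
Share (percent, y axis) of Cox6b1 in the counts of Cox6b1 and Cox6b2 (left) and of Atp5g1 in those of 3 genes for subunit c (right), in 6 groups; each point is a library and the black line is the median. Cox6b1 stays at or below 42.2% up to 2c and is at 95.6% or more at 8c, while Atp5g1 is highest at 2c.

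The second question was whether maternal loss of Plag1 changed these genes. In MII oocytes 1 of 84 members was called higher in matPlag1KO and 0 lower (edgeR with TMM scaling, all genes 0.309% higher and 0.472% lower), 10 members (11.9%) had an unadjusted p under 0.05 beside 10.2% of all genes, and DESeq2 also called 1 and 0. The members' median log2 fold change was 0.01 and that of all genes 0.00. The gene called was Ndufc2, a small subunit in the membrane arm of complex I, at 0 to 34.5 CPM (median 6.70) in WT and 0 to 156 CPM (median 15.9) in matPlag1KO oocytes. The groups overlapped, with a log2 fold change of 1.70 ± 0.43 (adjusted p = 0.0249). In libB alone it was 0.44 (adjusted p = 0.829) and in libA alone 2.10 (adjusted p = 0.0194). With well positions as a block in edgeR, described at the end, it was 1.01 (adjusted p = 0.0694). That fit called 7 other members, beside 639 higher and 153 lower among all genes.

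In 2c embryos the members leaned lower in the matPlag1KO group. 7 of 84 were lower and 1 was higher, beside 2.62% of all genes called lower and 2.3% higher. The members' median log2 fold change was -0.46 against 0.12 for all genes, and 55 of 84 were negative. The 77 mitochondrial ribosomal protein genes leaned the same way, with a median of -0.33 and 53 of 77 negative. At an unadjusted p under 0.05 stood 22 members lower (26.2%) and 2 higher (2.38%), beside 9.07% and 11.4% of all genes. Among genes with a mean of at least 20 CPM in one of the groups, 6 of 54 members were lower (11.1%) against 5.79% of all such genes. The number called differed with the scaling and with the test. Shares of all genes are given for the main test only and were not counted for the alternatives that follow. With spike-in factors, which moved the median of all genes to 0.28 and that of the members to -0.32, 1 member was lower. With median-ratio scaling (0.31 and -0.27) 5 were. DESeq2, run with the same TMM factors as the main test, called 13 lower. In libA alone, with 4 WT and 5 matPlag1KO embryos, edgeR called no member, and in libB alone, with 7 and 6, it called 6 lower and 0 higher. The 7 lower members had negative values in each set. Of these, Ndufs8, Cox7c, Atp5j and Uqcrq passed the edgeR test in libB. Cox7a2, Ndufs7 and Ndufa7 did not (adjusted p = 0.0678, 0.0523 and 0.0593), so those called in libB include other members.

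Complex I gave 3 of the 7. Ndufs8, a core subunit that carries iron-sulfur clusters toward ubiquinone (chr19:3908863-3912774 in mm9, minus strand, promoter shown above), was at 11.5 to 304 CPM (median 108) in WT and 7.97 to 80.3 CPM (median 30.1) in matPlag1KO embryos. All 11 of the latter lay below the WT median and 7 of 11 WT embryos lay above the highest of them, with a log2 fold change of -1.90 ± 0.39 (adjusted p = 0.00172). It was the single lower member that passed with spike-in scaling (-1.74, adjusted p = 0.0344). Ndufs7, the neighboring core subunit with the last cluster of the chain (chr10:79712197-79719537), was at 0 to 36.4 CPM (median 9.11) against 0 to 7.97 CPM (median 3.25), from 31 and 6 counts in all. Its change was -2.46 ± 0.78 (adjusted p = 0.0469), close to the threshold and on few counts. Ndufa7 (chr17:33961517-33975261) was at 11.5 to 208 CPM (median 58.3) against 0 to 61.6 CPM (median 14.1), a change of -1.64 ± 0.44 (adjusted p = 0.0194).

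Uqcrq, a small subunit of complex III next to cytochrome b (chr11:53242450-53244333), was at 53.8 to 177 CPM (median 91.9) in WT and 4.08 to 80.3 CPM (median 27.7) in matPlag1KO embryos. 7 of the latter were below the lowest WT embryo, and the log2 fold change was -1.51 ± 0.41 (adjusted p = 0.0202). In complex IV, Cox7a2, the common form of subunit VIIa (chr9:79603048-79607660), was at 195 to 630 CPM (median 322) against 111 to 249 CPM (median 169), a change of -1.04 ± 0.29 (adjusted p = 0.0229). It was the called member with counts in every library of both groups and of the oocytes, and 9 of 11 WT embryos lay above the highest matPlag1KO embryo. Cox7c (chr13:86184403-86186400), whose promoter is shown above, was at 10.9 to 396 CPM (median 138) against 13.8 to 128 CPM (median 45.1), with a change of -1.39 ± 0.40 (adjusted p = 0.0268).

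In complex V, Atp5j was at 80.4 to 395 CPM (median 263) in WT and 23.9 to 201 CPM (median 67.7) in matPlag1KO embryos. Again 9 WT embryos were above all of the others, and the change was -1.32 ± 0.35 (adjusted p = 0.0154). Its neighbor Gabpa had a value of -0.76 that did not pass the test (adjusted p = 0.259). Other members of complex V lay close behind, among them Atp5b, the catalytic beta subunit (-0.75, adjusted p = 0.0514), and 9 of the 17 members of the complex had an unadjusted p under 0.05, beside 20.5% of all genes. Of the 7 lower members, Ndufs8, Ndufa7, Uqcrq, Cox7c and Atp5j were also among those that rose from MII to 2c in WT. Both comparisons use the same WT 2c libraries, so they are not independent.

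Ndufb10, an accessory subunit of the membrane arm of complex I (chr17:24859012-24861333), went the other way. It had counts in 5 of 11 WT embryos (0 to 13.7 CPM, median 0) and in 10 of 11 matPlag1KO embryos (0 to 56.5 CPM, median 21.8), 8 of which were above every WT embryo. The log2 fold change was 2.53 ± 0.62 (adjusted p = 0.00854), and it passed with all 3 scalings. Among members averaging 20 CPM or more in either 2c group, the highest and lowest of complex II, Sdha (0.30) and Sdhc (-0.05), and the highest of complexes III and V, Uqcrh (0.48) and Atp5l (0.76), did not pass. Cycs had a value of 0.02.

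**Figure D4:**
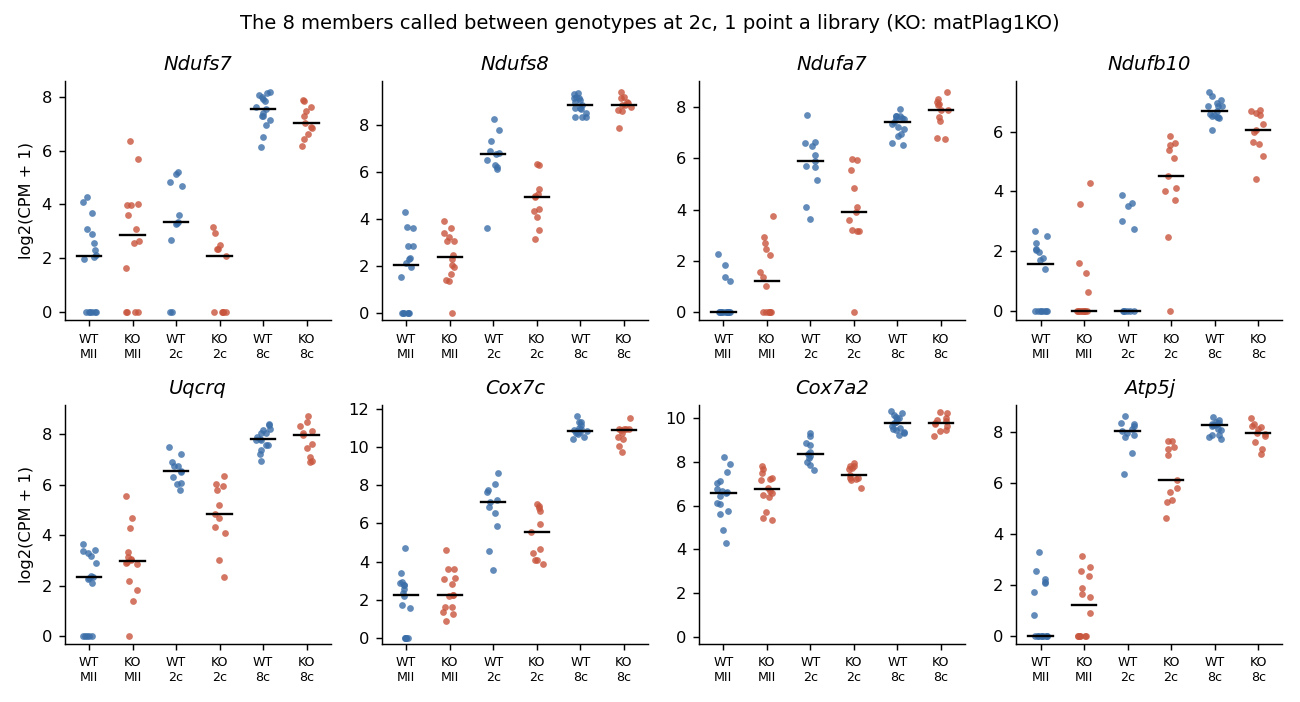
Level of the 8 members called between genotypes at 2c, as log2(CPM + 1) (y axis), in 6 groups (x axis); each point is a library and the black line is the median. 7 genes are lower and Ndufb10 is higher in matPlag1KO 2c embryos, and at 8c the genotypes overlap for all 8.

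In 8c embryos 0 of 84 members were called in either direction (edgeR, all genes 1.21% higher and 0.527% lower), and DESeq2 also called 0. 3 members (3.57%) had an unadjusted p under 0.05, beside 14.3% of all genes, all 3 with lower values in matPlag1KO: Cox7b (-0.85), Ndufa10 (-0.65) and Ndufa8 (-1.03). The members' median was -0.17 against 0.00 for all genes. The genotypes overlapped at 8c for all 8 genes called at 2c. Ndufs8, for example, was at 325 to 662 CPM (median 471) in WT and 234 to 681 CPM (median 469) in matPlag1KO, with a log2 fold change of 0.00.

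The difference between stages was tested directly. The genotype difference at 2c was lower than that in oocytes for 5 members and higher for 0 (edgeR, all genes 3.31% in either direction). These were Ndufs7 (-3.91), Ndufa7 (-2.95), Uqcrq (-2.69), Ndufs8 (-2.07) and Atp5g1 (-1.58). At an unadjusted p under 0.05 in that test stood 19 of 84 members, beside 2923 of all 16511 genes. DESeq2 called 8 members lower and 2 higher, and its calls over all genes were not counted. Against 8c the genotype difference at 2c differed for 3 members (edgeR, all genes 2.3%). It was lower for Ndufa7 (-2.17) and Ndufs8 (-1.90) and higher for Ndufb10 (3.16). With spike-in scaling 0 members were lower in that second comparison.

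**Figure D5:**
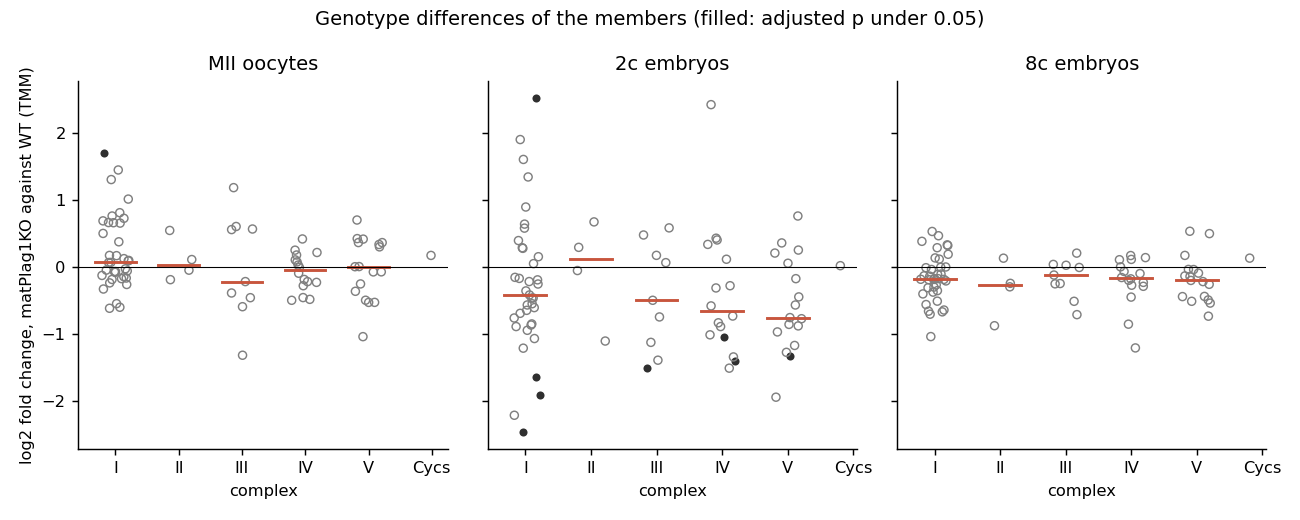
Log2 fold change of matPlag1KO against WT with TMM scaling (y axis) of each member by complex (x axis) at MII, 2c and 8c; filled points passed adjusted p under 0.05, open points did not, and red lines are medians of a complex. 8 points are filled at 2c, where the medians of complexes I, III, IV and V lie below 0, 1 is filled at MII and none at 8c.

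Genes that build or regulate the chain were followed beside the subunits. Of 51 assembly factors, 8 rose and 23 fell in WT from MII to 2c, where 14.1% of all genes rose and 51.3% fell. From 2c to 8c 31 rose and 0 fell (edgeR, also 31 at an unadjusted p under 0.05), beside 31.9% and 16.2% of all genes. At 2c 3 were higher and 2 lower in matPlag1KO embryos (all genes 2.3% and 2.62%), with a median of -0.04. Lyrm7, which matures the Rieske protein of complex III, had 1 count among the 11 WT embryos and 177 among the matPlag1KO embryos, all 11 of which had it (23.1 to 148 CPM). WT oocytes held it at a median of 26.3 CPM. Also higher were Lrpprc, which stabilizes mitochondrial mRNA, with 1 count against 14, and Coa3 of complex IV assembly (log2 fold change 1.92). Lower were Ndufaf7 of complex I assembly (-2.17) and Uqcc3 of complex III assembly (-1.24). Of 18 regulators of mitochondrial gene expression, 6 rose and 6 fell in WT from MII to 2c, beside the same shares of all genes, among them Gabpa (5.25) and Yy1 (2.62) upward and Tfam, which packages mitochondrial DNA, downward (-4.17). From 2c to 8c 7 rose, including Slirp (5.67), Mterf4 (5.15) and Tfam (3.69). Of the subunit genes that the symbols above leave out, Usmg5 of complex V rose by 3.01 in WT from MII to 2c and Ndufab1 of complex I fell by 1.64. Between genotypes at 2c 0 of the 18 regulators passed the edgeR test and 2 had an unadjusted p under 0.05.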

How the data were processed

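Single oocytes and embryos were profiled by STRT RNA-seq, which counts 5′ ends with molecular identifiers. The authors aligned reads to mm9 with TopHat and counted them per gene with HOMER on the UCSC annotation, and the deposited values are raw read counts per gene. Versions and strand handling are not given in the sources used here. Libraries with a median CPM below 1 were left out, and genes at 1 CPM or more in at least 5 kept libraries were tested. Genotypes were compared with edgeR 4.0.16 in R 4.3.3 (quasi-likelihood test, TMM scaling) and stages with factors from 92 spike-in RNAs. All 6 groups shared 1 fit, p-values were adjusted by the Benjamini-Hochberg method over 16511 genes, and the threshold was 0.05. Alternatives were spike-in, TMM or median-ratio scaling, no filter, all libraries, DESeq2 1.42.0, libA or libB alone or the set as a term, and well positions as a block. Those of the stage-by-genotype tests were chosen after seeing the data. Genes named are members called between genotypes, the highest and lowest per complex in a WT stage step or between genotypes at 2c among members with a mean of at least 20 CPM in one of the groups, and sister genes, and a few others (Ndufa8, for example) were picked after their values were seen. Members and lists were chosen with earlier results of these data known. Counting intervals are exact, at 95%, and cover counting error only. No 2 libraries of a group agreed within sampling noise. Figures used matplotlib 3.10.9.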

Additional observations from a re-analysis of the deposited data

Results flagged for a closer look

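The genotype difference (matPlag1KO against WT, log2) at 2c differed from that in MII oocytes by an interaction test for 5 members (edgeR, adjusted over all genes). The difference of differences was -2.69 for Uqcrq (adjusted p = 0.00266), -2.07 for Ndufs8 (0.0219), -3.91 for Ndufs7 (0.00573), -2.95 for Ndufa7 (0.0078) and -1.58 for Atp5g1 (0.0405). Uqcrq, Ndufs7 and Ndufa7 stood at 1.19, 1.45 and 1.31 in oocytes, so that values of opposite sign at the 2 stages make up these results. None of these oocyte values passed the edgeR test on its own (adjusted p = 0.168, 0.131 and 0.309).

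Against 8c, the genotype difference at 2c was higher for Ndufb10 by 3.16 (adjusted p = 0.00945) and differed by -1.90 for Ndufs8 (0.0226) and -2.17 for Ndufa7 (0.0226). Both families of tests share the 2c libraries and are not independent of each other. Ndufs7 and Ndufb10 rest on few counts at 2c, as given above.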

How the results depend on the processing

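Of the alternatives run on single named members, 219 values between genotypes kept direction and side of the threshold, 25 lost the call, 3 gained it and 0 reversed. Between stages the numbers were 344, 21, 9 and 7. The cause of the changes below was not tested, except that libA or libB alone holds fewer libraries. Counts of members below stand without the share of all genes under the same alternative.

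Between genotypes at MII, members called higher numbered 2 in libA, 2 in libB and 5 when wells served as a replicate block, and lower 1 in libB and 2 with that block. The wells did not pair the oocytes by every pair: r ran from -0.0268 to 0.656 over 14 pairs, 12 were over 0.1, and 23 of 28 libraries correlated best with their own well. Ndufc2, the member called without it, had 1.01 with the block (adjusted p = 0.0694) and was not among the 7 called there. At 2c, 2 members were higher with all libraries kept and 0 in libA or libB, and lower were 1 with spike-in scaling, 13 with DESeq2 and 0 in libA.

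From MII to 2c in WT, 36 members rose and 14 fell with TMM scaling, 11 rose in libA and 24 fell in libB. The median became 0.64 with TMM and 0.34 in libB. In matPlag1KO, TMM gave 32 that rose, 19 that fell and a median of 0.42. Reversed values in WT with TMM were Cycs 1.17, Cox6b2 0.23, Cox8a 0.081, Ndufa4 0.43, Atp5g2 0.24 and Atp5g3 1.06, and in libB Cox6a1 0.99. From 2c to 8c in WT, 2 fell with TMM.

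For the 2c difference against MII, alternatives chosen after seeing the data gave 2 above 0 with median-ratio scaling, 1 with all libraries, 2 with DESeq2 and 1 in libB, and 3 below 0 with all libraries, 8 with DESeq2 and 1 in libA. Against 8c they gave 2 above 0 with all libraries, 2 with DESeq2 and 0 in either set, and below 0 they gave 0 with spike-in scaling, 1 with all libraries, 7 with DESeq2, 0 in libA and 1 in libB. Low depth at 2c limits calls on genes of few counts.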
